A study of Mus musculus with 6 samples.

Results

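The proteasome is the large barrel-shaped protease that breaks down proteins tagged with ubiquitin, and its constitutive subunits and regulators were followed here in CD31-positive cells of mouse tumours. Members were all rows of the expression table whose gene symbol begins with Psma, Psmb, Psmc, Psmd, Psme, Psmf or Psmg and a digit, leaving out the immunoproteasome subunits Psmb8, Psmb9 and Psmb10, which gave 42 members of 23930 genes. Of these 39 reached the level needed for testing, at least 5 RPM (reads scaled to the library's total reads) in at least 3 libraries. Psmb5, Psma3, Psma5, Psme2 and Psmg3 were not analysed here. The cells were sorted by flow cytometry from tumours under the skin of C57/Bl6 mice, 2 weeks after injection of LLC cells, the Lewis line of mouse lung carcinoma. In the control group (replicates 1, 2 and 3) the injected cells were control LLC cells, and in the BMP9 overexpression group (replicates 4, 5 and 6) they overexpressed the bone morphogenetic protein BMP9, known for its action on endothelial cells. The mice, the tumour line and the CD31 sort were common to both groups, and the sources used here give neither the promoter behind the overexpression nor the sex or age of the mice. Whether the 3 libraries of a group stem from different mice is not labelled, and the p-values therefore reflect the spread among these libraries alone, which may be technical.

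In the proteasome, a core particle (20S) of stacked alpha and beta rings encloses the proteolytic sites. A regulatory particle (19S) caps it, with a base of ATPases that unfold substrates and a lid that removes ubiquitin. Other caps, such as the PA28 complexes, open the core without ubiquitin, and dedicated chaperones assemble the rings and the base. Cells of the immune system, and cells exposed to interferon, exchange the catalytic beta subunits for the immunoproteasome forms.

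The libraries held between 1321762 and 28380957 reads, and 3 reads corresponded to between 0.106 and 2.27 RPM. Markers of several leukocyte types were abundant and differed between the groups, and their part in the results below was not tested. All 13 T and NK cell markers fell, with a summed level of 5650 to 5991 RPM in control and 721 to 1360 RPM in BMP9 libraries. Of 12 macrophage and monocyte markers all 10 that were tested rose, and the sum went from between 4427 and 7035 RPM to between 17879 and 23916 RPM. All 13 cell cycle genes fell (1207 to 1579 RPM against 170 to 221 RPM), and 5 of 10 genes of the dissociation response rose (3678 to 4688 RPM against 4694 to 6080 RPM). All 4 tested of 6 neutrophil markers rose (20.7 to 30.3 RPM against 198 to 274 RPM), and 2 of 6 dendritic cell markers fell (218 to 229 RPM against 164 to 288 RPM). In the limma fit to the values as deposited, and in edgeR and DESeq2, none of the 5 interferon response genes passed, and 0 had an unadjusted p under 0.05 in that fit (787 to 1117 RPM against 599 to 1066 RPM). Irf1 passed with array weights (-0.83, adjusted p = 0.0024) and Ifit1 when the run time stamp was a covariate (-1.27, adjusted p = 0.016). The column names carry that stamp, and only BMP9 replicate 4 shares the earlier one with the 3 controls. The 9 endothelial markers, of which 4 were tested, summed to 382 to 574 RPM and 276 to 405 RPM. Pecam1, which encodes CD31, gave most of the endothelial sum. Among other defining genes of endothelium, Tek and Cldn5 averaged 0.471 and 0.812 RPM in control and 0.42 and 0.863 RPM in BMP9 libraries. In the same order of groups Cdh5 averaged 9.81 and 6.15 RPM, Vwf 3.85 and 6.27 RPM, Tie1 2.41 and 0.321 RPM, and Emcn 1.53 and 0.719 RPM. The endothelial receptor gene Flt1 rose from 5.36 ± 4.02 to 20.5 ± 9.83 RPM (log2 fold change 1.83, adjusted p = 0.0058) and Kdr fell from 11.5 ± 7.12 to 3.59 ± 1.02 RPM (-1.32, adjusted p = 0.025; SD, n = 3 each). Kdr stood at 6.76, 19.7 and 8.0 RPM in control replicates 1, 2 and 3. It passed with edgeR (-1.35, adjusted p = 0.044) but not with TMM factors (-1.08, adjusted p = 0.069) or quantile normalization (-0.92, adjusted p = 0.13). Within the earlier stamp the log2 fold change was 1.28 for Flt1 and -1.48 for Kdr. In such bulk samples fewer cells of a type and less RNA per cell cannot be told apart.

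Most constitutive proteasome transcripts did not pass the test between the groups, and the few that did went in both directions. Of the 39 tested members 2 were higher (Psmd8 and Psmd3) and 6 were lower (Psmd13, Psmg2, Psmb2, Psme1, Psmd4 and Psmb3) in BMP9 libraries at an adjusted p of 0.05, where limma-trend was fitted to log2(RPM + 1) of all 9460 tested genes. The members called made up 20.5% of those tested, against 35.2% of all genes tested, with 12.7% of all genes higher and 22.5% lower. The median log2 fold change of the members was -0.19, next to -0.24 for all genes. The middle 50% of the members lay between -0.54 and 0.11 and that of all genes between -0.82 and 0.36, and the standard deviation over genes was 0.60 and 1.06. Estimates beyond 2-fold were found for 3 members (7.69%), Psmg2, Psmd13 and the uncalled Psmc6, against 29.8% of all genes. Control and BMP9 libraries did not overlap for 12 members (30.8%), 4 higher and 8 lower, where 48.1% of all tested genes had no overlap. These figures describe the members beside all genes, and no test of the list was made.

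**Figure D1:**
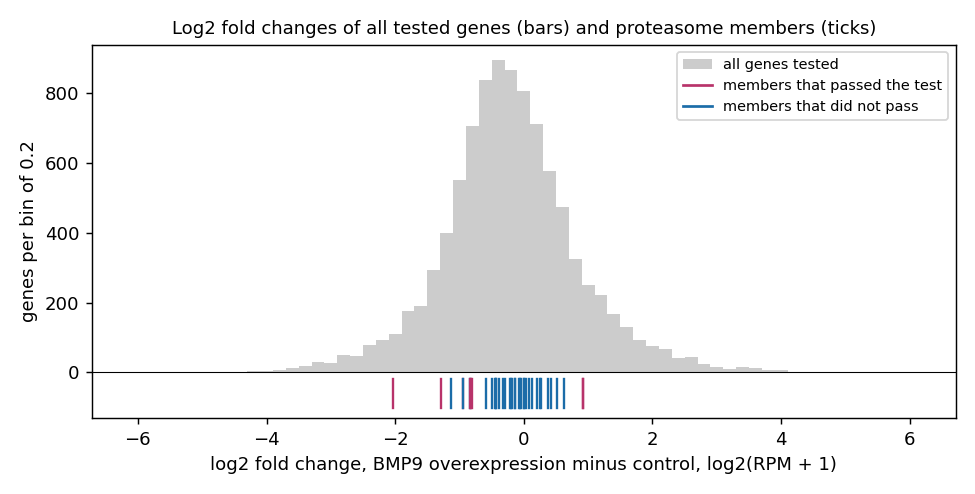
Distribution of the log2 fold change (x axis, BMP9 overexpression minus control on the log2(RPM + 1) scale) over the 9460 tested genes (bars, genes per bin on the y axis), with a tick below for each of the 39 tested proteasome members. The members lie between -2.03 and 0.92, and the bars reach further on both sides.

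The direction of the members as a whole depended on the scaling of the libraries. Summed over the 42 members, control replicates 1, 2 and 3 held 7033, 7330 and 7394 RPM. BMP9 replicates 4, 5 and 6 held 6056, 6285 and 5924 RPM, so that every BMP9 library was below every control. The BMP9 mean was 83.9% of the control mean. With TMM factors, which centre the libraries on the bulk of genes and moved the median of all genes from -0.24 to 0.03, the same sums were 6110, 6896 and 6716 RPM in control and 6333, 7059 and 6794 RPM in BMP9 libraries, and the groups overlapped at 102.3% of control. Under TMM the members' median was 0.09, and 4 members were higher and 2 lower (15.4% of members, against 31.6% of all genes, 17.7% higher and 13.9% lower). The 2 lower were Psmd13 and Psmg2, and the 4 higher were Psmd8, Psmd3, Psmd10 and Psme4.

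**Figure D2:**
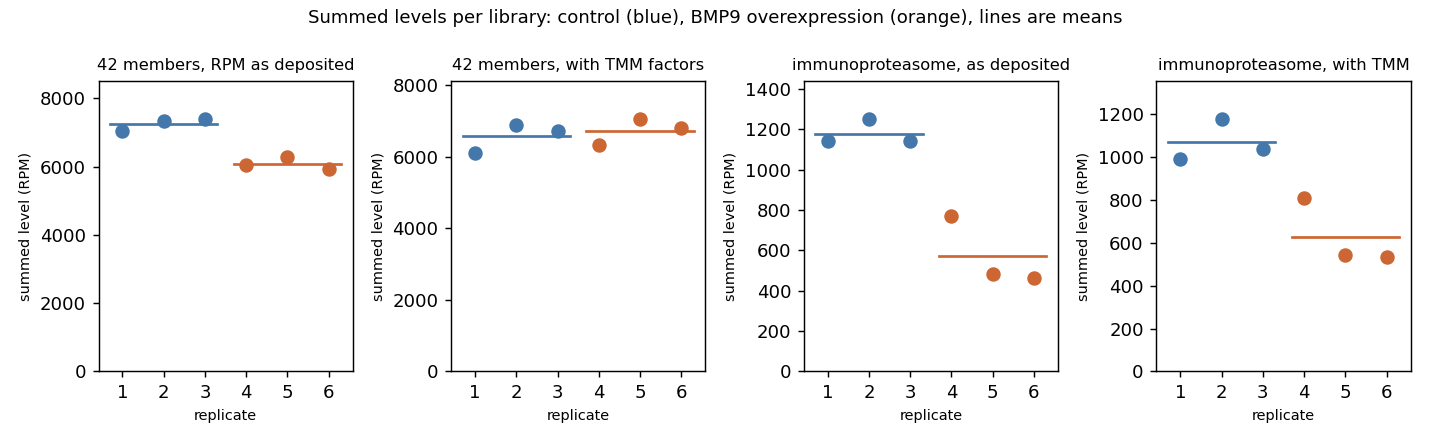
Summed level in RPM (y axis) of the 42 members and of the 3 immunoproteasome subunits in each library (x axis, replicate), as deposited and after division by TMM factors, with lines at the group means. The member sums are lower in BMP9 libraries as deposited and overlap with TMM factors, while the immunoproteasome sums are lower in BMP9 libraries under both.

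Of the 8 lid members 1, Psmd13, fell and 2, Psmd8 and Psmd3, rose, where 35.2% of all tested genes passed in either direction. Psmd13 was the member whose call held in every setting tried. The lid is built around a horseshoe of scaffold subunits, to which Psmd13, Psmd8 and Psmd3 all belong, and Psmd14 is its deubiquitinating enzyme. Psmd13 (chromosome 7, 140881968 to 140898643, mm10) was at 222, 188 and 142 RPM in the controls (in the order of replicates 1, 2 and 3, as in all values below) and at 70.4, 58.3 and 96.0 RPM with BMP9 (4, 5 and 6). The groups did not overlap, and the log2 fold change was -1.29 (SE 0.29, adjusted p = 0.0028), a 2.45-fold decrease. This call stood in all 18 alternative settings, with log2 fold changes of -1.01 with TMM factors and -1.35 within the earlier run time stamp. Some exons of Psmd13 overlap exons of Sirt3, a mitochondrial deacetylase gene on the opposite strand, which fell from 18.1 ± 3.33 to 7.57 ± 1.34 RPM (SD, n = 3 each; log2 fold change -1.15, adjusted p = 0.016; 0.052 with TMM factors). Whether the reads of Psmd13 come from the shared segment was not tested, and Sirt3 was chosen after its values were seen.

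Psmd8 (chromosome 7, 29174188 to 29180701) was at 273, 135 and 269 RPM in control and at 494, 321 and 427 RPM in BMP9 libraries. Every BMP9 library was above every control, and control replicate 2 was the lowest of the 6. The log2 fold change was 0.92 (SE 0.31, adjusted p = 0.031), a 1.89-fold increase, and 1.21 with TMM factors. It did not pass without control replicate 2 (0.59, adjusted p = 0.14), without BMP9 replicate 4 (0.78) or 6 (0.89), without the filter on low values, or without the trend in limma. Psmd3 (chromosome 11, 98682554 to 98695979) was at 48.2, 49.9 and 55.0 RPM in control and at 157, 103 and 57.4 RPM in BMP9 libraries. BMP9 replicate 6 was close to the controls, and replicates 4 and 5 were far above them. The log2 fold change was 0.92, with an SE of 0.34 and an adjusted p of 0.044. It was 0.58 without replicate 4 and 0.35 with array weights, which favour replicate 6, and passed in neither. The call was also lost without the filter, without the trend, on leaving out any single control, and on leaving out BMP9 replicate 5. Exons of Psmd3 overlap the noncoding Gm12356 on the other strand.

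The remaining 5 lid members, Psmd6, Psmd7, Psmd11, Psmd12 and Psmd14, did not pass and lay between -0.50 and 0.08. Psmd12 passed as lower with the stamp as a covariate (-1.08, adjusted p = 0.022) and within the earlier stamp (adjusted p = 0.032). Psmd14, the deubiquitinase, had an interval of -0.70 to 0.56 on the log2 scale. The transcript of Psmd11 matches A730017L22Rik at 97.9% over 1501 bases and the pseudogene Gm14048 over 1269 bases, so some of its reads could come from them. Summed over the 8 lid members the levels were 1368, 1111 and 1251 RPM in control and 1339, 1184 and 1285 RPM in BMP9 libraries. They overlapped, with the fall of Psmd13 and the rise of Psmd8 and Psmd3 in the same sum.

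**Figure D3:**
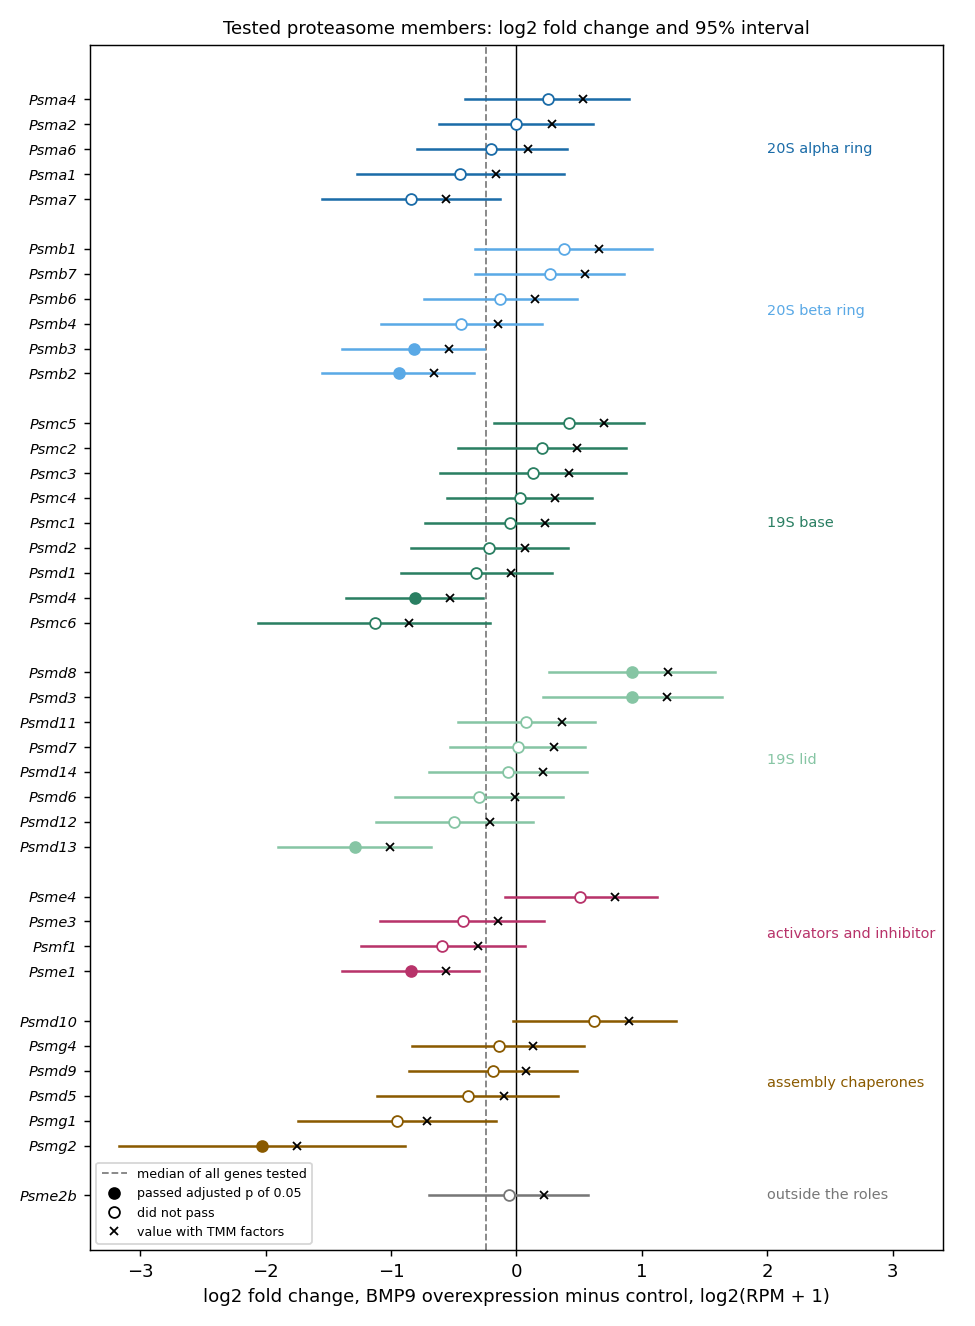
Log2 fold change of each tested member (points, BMP9 overexpression minus control on the log2(RPM + 1) scale, x axis) with its 95% interval from limma, grouped by role. Filled points passed the adjusted p of 0.05, crosses give the value with TMM factors, and the dashed line is the median of all genes at -0.24. Each of the 6 roles holds members on both sides of that line, and the intervals of most members include 0.

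Promoter sequences are printed for the called members Psmd13, Psmd8, Psmd4, Psmb3 and Psme1, from the RefSeq promoter table (build GRCm38.p6). Those of the called members Psmg2, Psmd3 and Psmb2 are not printed, whether or not they have an entry there. Called members are the genes for which a reader would first look for a shared element. Each line gives 120 bases that end at the base before the RefSeq start site, read 5′ to 3′ on the strand of the gene, with capitals for matches to CCAAT or to CACGTG or to TGACNNNGC (the core of the element that the NRF family of factors binds) on either strand.
Psmd13 (lower, chr7:140882274-140882393, plus strand): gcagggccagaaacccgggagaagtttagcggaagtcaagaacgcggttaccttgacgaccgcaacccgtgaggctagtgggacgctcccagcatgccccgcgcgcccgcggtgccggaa
Psmd8 (higher, chr7:29180674-29180793, minus strand): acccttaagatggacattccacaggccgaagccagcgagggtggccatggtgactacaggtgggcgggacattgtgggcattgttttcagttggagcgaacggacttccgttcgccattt
Psmd4 (lower, chr3:95042615-95042734, minus strand): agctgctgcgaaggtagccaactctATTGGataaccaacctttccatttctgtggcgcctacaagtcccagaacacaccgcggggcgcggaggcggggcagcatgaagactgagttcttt
Psmb3 (lower, chr11:97703314-97703433, plus strand): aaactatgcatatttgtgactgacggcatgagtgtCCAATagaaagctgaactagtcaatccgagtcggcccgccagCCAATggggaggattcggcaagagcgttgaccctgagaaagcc
Psme1 (lower, chr14:55578374-55578493, plus strand): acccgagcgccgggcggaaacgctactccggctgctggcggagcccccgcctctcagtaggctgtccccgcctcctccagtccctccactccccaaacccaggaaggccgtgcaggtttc
Psmb3 has 2 CCAAT boxes and Psmd4 has 1 on the reverse strand, and the windows of Psmd13, Psmd8 and Psme1 hold none of the 3 motifs. By the mm10 gene coordinates given in the text, the windows of Psmd13 and Psme1 lie inside the gene. Those of Psmd8 and Psmb3 lie partly inside it. These windows are therefore upstream of the RefSeq start only, and sequence before the annotated gene start may be missing from them. Over the whole 300 bases of the table's promoters, from 250 before to 50 after the start, CCAAT stood in 11 of 32 tested members with an entry (34.4%) and in 41.1% of all 27025 genes of the table. TGACNNNGC stood in 5 members (15.6%, against 14% of all genes), Psmb6, Psmc6, Psmd12, Psmd9 and Psme4, of which none was called. CACGTG stood in 3 members (9.4%, against 8.1%), Psma4, Psmd9 and Psme3. A match is a string of letters and not evidence of binding.

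The subunits of the alpha rings form the gate of the core. None of the 5 tested members passed in the limma fit to the values as deposited, where 35.2% of all tested genes did. None passed in edgeR or DESeq2 either, and 1 had an unadjusted p under 0.05 in that limma fit. That was Psma7, with 573, 890 and 540 RPM in control and 215, 503 and 439 RPM in BMP9 libraries. The groups did not overlap, although BMP9 replicate 5 was close to control replicate 3, and the log2 fold change was -0.84 (SE 0.33, adjusted p = 0.061). It was -1.59 (adjusted p = 0.0086) within the earlier run time stamp, which compares BMP9 replicate 4 alone with the controls. Without that library it was -0.47 (adjusted p = 0.21), and without BMP9 replicate 5 it passed at -1.08 (adjusted p = 0.031). Psma1 was at 55.6, 131 and 60.5 RPM in control and 94.7, 34.9 and 51.9 RPM in BMP9 libraries, and Psma4 at 113, 232 and 119 RPM and 139, 184 and 205 RPM. Both overlapped between groups (log2 fold changes -0.45 and 0.25), and control replicate 2 was the highest library for both. Psma4 passed with array weights (0.64, adjusted p = 0.015). An annotated processed pseudogene, Gm6542, matches the Psma4 transcript at 96.8% over 783 bases, so some Psma4 reads could come from it. The 6 alpha genes summed to 1281, 2032 and 1404 RPM in control and 1200, 1251 and 1303 RPM in BMP9 libraries.

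Of the 6 tested beta subunits 2 fell, where 22.5% of all tested genes were lower. Both are structural subunits without a role in proteolysis in mammals. Psmb2 (chromosome 4, 126677630 to 126709714) was at 426, 582 and 355 RPM in control and 189, 211 and 307 RPM with BMP9, which is 1.92-fold lower (log2 -0.94, SE 0.29, adjusted p = 0.019). Psmb3 (chromosome 11, 97703399 to 97713500) was at 180, 216 and 189 RPM and 139, 105 and 90.3 RPM (log2 fold change -0.82, SE 0.27, adjusted p = 0.025). Both genes had groups that did not overlap, and neither passed with TMM factors (-0.66 and -0.54), with edgeR or with DESeq2. The call of Psmb2 was also lost without the filter and when control replicate 1, control replicate 2 or BMP9 replicate 5 was left out. Psmb3 was lost within the earlier stamp or with the stamp as a covariate (-0.48 in both) and without each library in turn except BMP9 replicate 4. Psmb3 has 3 annotated pseudogene copies at 96.3% to 97.1% identity, so the origin of its reads is uncertain.

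The catalytic subunits Psmb6, of the caspase-like site, and Psmb7, of the trypsin-like site, did not pass. Psmb6 was at 63.7, 85.5 and 61.0 RPM in control and 80.5, 56.2 and 55.6 RPM in BMP9 libraries (log2 fold change -0.13, 95% interval -0.74 to 0.48). Psmb7 was at 187, 285 and 223 RPM and 362, 217 and 263 RPM (0.27, interval -0.33 to 0.86), and shares exon sequence with Nek6 on the opposite strand. Psmb4, a structural subunit, was at 288, 204 and 313 RPM in control and 138, 279 and 192 RPM in BMP9 libraries, with overlap and a log2 fold change of -0.44 (adjusted p = 0.28). With array weights Psmb4 passed as lower (-0.53, adjusted p = 0.035). Psmb1, the sixth, was not called either (0.38).

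The immunoproteasome counterparts, measured in the same libraries, all fell, Psmb10 from 209 ± 4.01 to 82.7 ± 13.7 RPM (log2 fold change -1.34, adjusted p = 0.0011), Psmb9 from 89.1 ± 11.5 to 37.8 ± 21.9 RPM (-1.35, adjusted p = 0.0082) and Psmb8 from 880 ± 51.3 to 452 ± 144 RPM (-1.0, adjusted p = 0.012; SD, n = 3 each). Within a library the ratio of an immunoproteasome subunit to the constitutive subunit it replaces does not depend on the scaling. The ratio of Psmb9 to Psmb6 was 1.42, 1.17 and 1.26 in control and 0.78, 0.504 and 0.40 in BMP9 libraries. The ratio of Psmb10 to Psmb7 was 1.11, 0.75 and 0.924 in control and 0.254, 0.309 and 0.34 in BMP9 libraries. Both ratios separated the groups, by 2.37-fold and 3.07-fold, and the exact permutation test (two-sided) gave p = 0.1 for each, the least that 3 against 3 libraries can give (0.133 after Benjamini-Hochberg adjustment over the 4 ratios computed). Amplicon yields differ between genes, so the ratios compare libraries and not the amounts of the subunits. Psmb9 (-0.49) and Psmb8 (-0.51) did not pass within the earlier run time stamp, nor without BMP9 replicate 6, without the filter or with the stamp as a covariate. Psmb8 also did not pass with TMM factors (-0.72, adjusted p = 0.061) or edgeR, whereas Psmb10 passed in all 18 settings. Exons of Psmb9 overlap those of Tap1 on the opposite strand, with 212 bases in common, so some of its reads could belong to Tap1. T and NK cell markers fell in the same libraries, as given above, and their part in this difference was not tested.

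**Figure D4:**
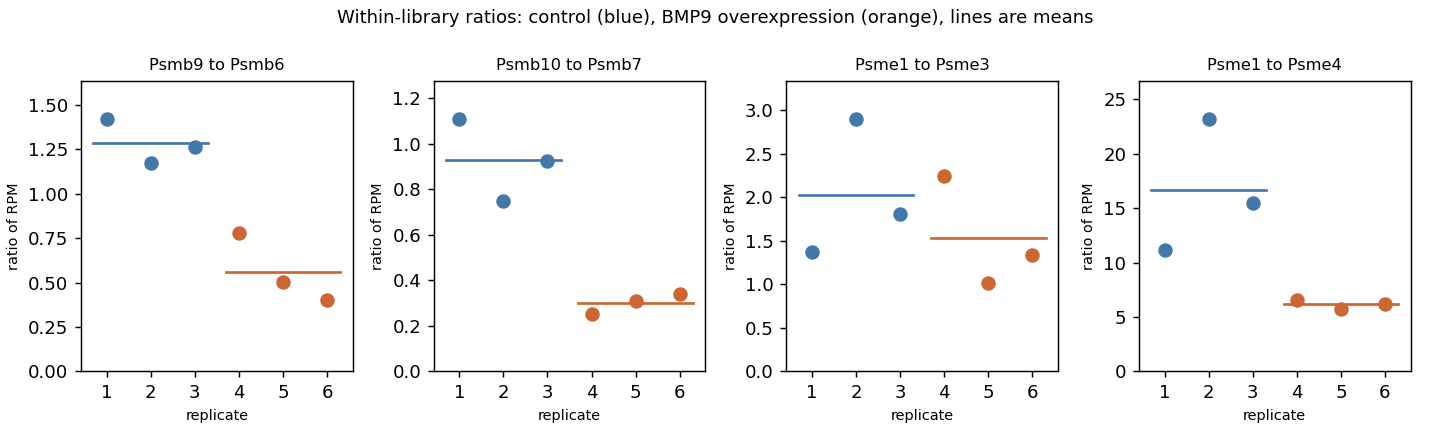
Ratio of RPM values within each library (y axis) for 4 gene pairs (panels) by replicate (x axis), with lines at the group means. Psmb9 to Psmb6, Psmb10 to Psmb7 and Psme1 to Psme4 separate control (blue) from BMP9 overexpression (orange) libraries, and Psme1 to Psme3 does not.

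In the base 1 of 9 members passed, where 35.2% of all tested genes did. Psmd4 (chromosome 3, 95032694 to 95042614), a ubiquitin receptor, was at 113, 139 and 124 RPM in control and 74.4, 70.8 and 66.9 RPM with BMP9 (log2 fold change -0.81, SE 0.26, adjusted p = 0.023). Its libraries differed little within groups, with the smallest within-group standard deviation of all tested members (0.12 on the log2 scale, against a member median of 0.36). The call was nevertheless lost with TMM factors (-0.53), edgeR, DESeq2 or the run time stamp, and on leaving out any single control or BMP9 replicate 6. Psmc6, an ATPase, was at 53.0, 68.1 and 36.0 RPM in control and 9.62, 29.5 and 39.3 RPM in BMP9 libraries. BMP9 replicate 4 was far below the other libraries and replicate 6 was above control replicate 3, and the log2 fold change of -1.13 (SE 0.43) missed the threshold at an adjusted p of 0.053, while that within the earlier stamp was -2.28 (adjusted p = 0.003). Without BMP9 replicate 4 it was -0.56 (adjusted p = 0.18), and it passed when control replicate 3 or BMP9 replicate 5 or 6 was left out. Psmc5, another ATPase, was at 158, 111 and 173 RPM and 180, 252 and 161 RPM, with overlap (0.42, adjusted p = 0.26). The other 4 ATPases, Psmc1 to Psmc4, lay between -0.05 and 0.20, and the scaffold subunits Psmd1 and Psmd2 at -0.32 and -0.22. Psmd2 passed with array weights (-0.55, adjusted p = 0.033). The transcribed processed pseudogene Gm5422 matches the Psmd2 transcript at 96.4% over 2726 of 2961 bases. The pseudogene AC110212.1 matches that of Psmc1 at 95.6% over 1306 bases. Some reads of Psmd2 and Psmc1 could therefore come from these copies. Psmc3 stood at 174 RPM in BMP9 replicate 4 and at 63.5 to 94.5 RPM in the other 5 libraries, and passed as higher with the stamp as a covariate (1.03, adjusted p = 0.031) and within the earlier stamp (adjusted p = 0.04).

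**Figure D5:**
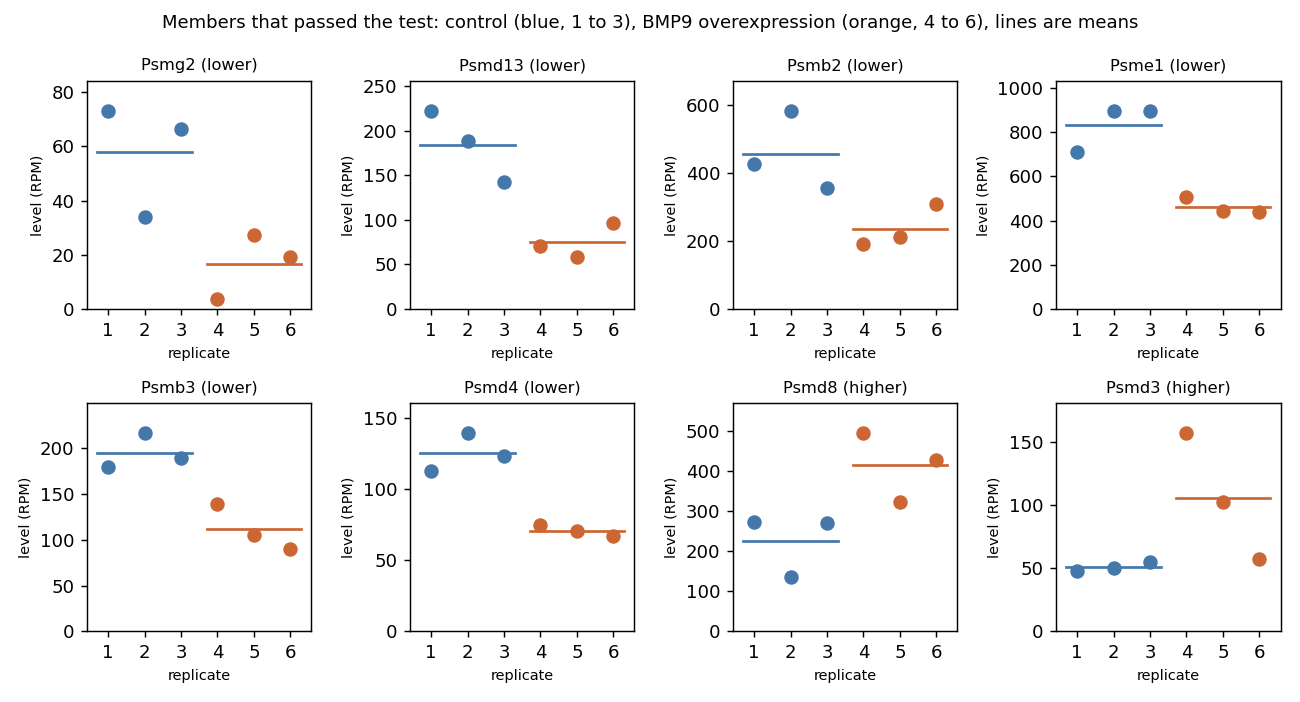
Level in RPM (y axis, from 0) of the 8 members that passed the test, in control replicates 1 to 3 (blue) and BMP9 overexpression replicates 4 to 6 (orange), with lines at the group means. No panel has overlapping groups, and Psmd3 shows BMP9 replicate 6 next to the controls.

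Among the activators and the inhibitor 1 of 4 tested members passed, the PA28 subunit Psme1, where 35.2% of all tested genes did. Psme1 (chromosome 14, 55578123 to 55581529), an interferon-inducible subunit of the cap that works with the immunoproteasome, was at 709, 896 and 897 RPM in control and 505, 444 and 439 RPM in BMP9 libraries. The groups were well apart, and the log2 fold change was -0.84 (SE 0.26, adjusted p = 0.019). It did not pass with TMM factors (-0.56, adjusted p = 0.12), with edgeR, DESeq2 or the run time stamp, or without control replicate 3 or BMP9 replicate 6. Psme3, the subunit of the nuclear PA28 form, was at 518, 309 and 496 RPM in control and 225, 436 and 328 RPM in BMP9 libraries (-0.43, adjusted p = 0.29), with overlap. Psme3 passed as lower with array weights (-0.52, adjusted p = 0.038). Psme4, the large activator PA200, was at 63.1, 38.6 and 58.0 RPM in control and 76.5, 77.1 and 70.6 RPM in BMP9 libraries. Every BMP9 library was above every control for Psme4, and its log2 fold change of 0.51 (adjusted p = 0.18) was 0.79 with TMM factors, where it passed (adjusted p = 0.039). Psmf1, the inhibitor PI31, was at 44.1, 50.7 and 55.5 RPM and 47.1, 25.6 and 29.4 RPM (-0.59, adjusted p = 0.15), with BMP9 replicate 4 among the controls. Without that replicate Psmf1 passed at -0.84 (adjusted p = 0.032), and with array weights at -0.7 (adjusted p = 0.011).

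The ratio of Psme1 to Psme4 was 11.2, 23.2 and 15.5 in control and 6.6, 5.76 and 6.22 in BMP9 libraries (exact permutation p = 0.1, two-sided, the least possible; adjusted 0.133), a 2.57-fold lower value. That of Psme1 to Psme3 was 1.37, 2.9 and 1.81 in control and 2.25, 1.02 and 1.34 in BMP9 libraries, with overlap (exact permutation p = 0.4, adjusted 0.4). The activators and the inhibitor together summed to 1334, 1294 and 1506 RPM in control and 853, 983 and 867 RPM in BMP9 libraries, 65.4% of the control mean and the lowest percentage of the 6 roles. Psme1 made up most of that sum in the controls.

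Of the 6 assembly chaperones 1 passed, where 35.2% of all tested genes did, and that was Psmg2. Its difference was the largest of the tested members with all 6 libraries, but not without BMP9 replicate 4, where Psmd13 was at -1.26 and Psmg2 at -1.23. Psmg2 pairs with Psmg1 to guide the building of alpha rings. Psmg2 was at 73.1, 34.0 and 66.5 RPM in control and 3.54, 27.4 and 19.1 RPM in BMP9 libraries. All BMP9 libraries were below the controls, and replicate 4 stood far below replicates 5 and 6, which gave the largest within-group standard deviation of the tested members (1.08). The log2 fold change was -2.03 (SE 0.54, adjusted p = 0.0088), or -1.75 with TMM factors and -3.62 within the earlier run time stamp, and the call was lost only when no filter on low values was used. Its partner Psmg1 was low, at 10.5, 6.81 and 8.5 RPM in control and 3.04, 5.22 and 3.7 RPM in BMP9 libraries, without overlap (-0.95, SE 0.37, adjusted p = 0.059). Psmg1 passed as lower with array weights (-1.08, adjusted p = 0.0028) and without the trend in limma (-0.95, adjusted p = 0.028). Psmd10 (gankyrin), a chaperone of the base, was at 22.7, 32.5 and 34.5 RPM in control and 47.1, 55.8 and 36.5 RPM in BMP9 libraries. It was higher in all 3 BMP9 libraries (0.62, adjusted p = 0.13) and passed with TMM factors (0.90, adjusted p = 0.036), quantile normalization, edgeR and DESeq2. Psmg4, Psmd5 and Psmd9 lay between -0.39 and -0.14 and were not called. Psmd5 passed as lower with the stamp as a covariate (-1.08, adjusted p = 0.04) and within the earlier stamp (adjusted p = 0.049).

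The last 4 members were outside these roles or too low to test. Psme2b is a copy of Psme2, the partner of Psme1 in PA28, and its transcript matches that of Psme2 at 99.4% over 794 of its 837 bases, so its reads cannot be assigned to either gene. It was at 230.0, 216 and 332 RPM in control and 167, 329 and 263 RPM in BMP9 libraries (-0.06, 95% interval -0.70 to 0.57). Psma8, an alpha subunit of the testis, was at no more than 2.22 RPM in any library, and Psmb11, the beta subunit of the thymus, at no more than 0.506 RPM. Psmc3ip, which matches the symbol pattern but encodes a partner of meiotic recombinases rather than a proteasome subunit, was at 2.18, 3.78 and 1.5 RPM in control and 0.506, 0.68 and 0.951 RPM in BMP9 libraries, below the level for testing.

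Genes that belong to or serve the proteasome but are not members went in both directions. There were 24 such genes with a row, all tested (shuttle factors, deubiquitinases, ubiquitin-activating enzymes, regulators and the 26S subunit Shfm1). Of these 2 were higher and 3 lower, where 12.7% of all tested genes were higher and 22.5% lower. Their median log2 fold change was -0.33. Shfm1 was at 224, 201 and 230 RPM in control and 309, 242 and 282 RPM in BMP9 libraries. Its groups did not overlap, and it did not pass (0.34, adjusted p = 0.31). Ddi2, a protease that activates the transcription factor NRF1, rose from 175 ± 53.4 to 382 ± 62.4 RPM (log2 fold change 1.16, SE 0.29, adjusted p = 0.006). NRF1 itself, Nfe2l1, which drives proteasome genes when activity is short, was at 138, 111 and 143 RPM in control and 212, 196 and 185 RPM in BMP9 libraries (0.60, adjusted p = 0.078; 0.88 and adjusted p = 0.014 with TMM factors). It was chosen after its values were seen. Usp14, a deubiquitinase that docks on the base, rose from 21.4 ± 8.91 to 51.3 ± 11.1 RPM (1.29, adjusted p = 0.011). Txnl1, a thioredoxin-like protein bound to the regulatory particle, fell from 188 ± 76.7 to 60.9 ± 19.9 RPM (-1.58, SE 0.33, adjusted p = 0.0019) and passed in all 18 settings. Nploc4, a cofactor of the unfoldase VCP, and Ubqln4, a shuttle factor, fell by 0.90 and 1.32 on the log2 scale (adjusted p = 0.022 and 0.025), and neither passed with TMM factors, edgeR or DESeq2 or without the filter. With single libraries left out Nploc4 kept its call in 1 of 6 fits and Ubqln4 in 2 of 6, and Ubqln4 was also lost with quantile normalization. Ddi2 and Usp14 did not pass within the earlier run time stamp (0.87 and 0.93) or with it as a covariate, and Usp14 was also lost without control replicate 3 (0.92, adjusted p = 0.07) and without the filter. All standard deviations here are over n = 3 libraries.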

How the data were processed

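The deposited values are RPM per gene, the authors' scaling to a common library total, which the table's name and column sums show. The build is mm10, per the submitters' processing notes, and libraries were made with an amplicon panel on Ion Torrent, per the labels' protocols. The sources used here name no aligner, no counting method and no use of strand. Values were whole multiples of 1 read (100% within 0.05 reads), which allowed tests on whole reads. No 2 libraries were alike within sampling noise (the lowest chi-square per degree of freedom was 8.53). The level of 3 reads covers counting error only, since PCR reads without molecular identifiers are not independent molecules.

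Values were tested as log2(RPM + 1) with limma-trend (version 3.58.1 in R 4.3.3) over all genes that reached 5 RPM in 3 or more libraries, and p-values were adjusted by Benjamini-Hochberg. This scale understates changes of low genes. Alternatives were pseudocounts of 0.5 and 5, no filter, a mean of at least 20 RPM, TMM factors, array weights, quantile normalization, limma without the trend, leaving out each library, and edgeR 4.0.16 and DESeq2 1.42.0 on whole reads. Column names carry a run time stamp, earlier for the 3 controls and BMP9 replicate 4 and later for BMP9 replicates 5 and 6. A fit with it as a covariate, or within the earlier stamp, sets BMP9 replicate 4 alone against the controls and assumes that it varies like the other libraries. The limma fit was tested on simulated data.

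Members and lists were chosen with earlier results of these data known. Values are given per library for the 3 members of smallest p in each role, the catalytic subunits, the activators and the inhibitor. The same holds for called members that went against the members' median. Related genes that passed are given as group means or log2 fold changes. Copies are GENCODE M21 transcripts with at least 95% identity over 150 bases or more.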

Additional observations from a re-analysis of the deposited data

How the results depend on the processing

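No paired analysis was possible because the groups share no replicate number. Against 2 members higher and 6 lower, 4 were higher with TMM factors and with DESeq2 and 0 without the filter or without the trend, and leaving out each library gave 0 to 1. At an unadjusted p under 0.05, limma had 3 higher without the filter and 2 without the trend, and edgeR called 3 higher. Lower members numbered 2 with TMM factors, edgeR and DESeq2 and 11 with array weights, and 3 to 7 with a library left out. The members' median was 0.09 with TMM factors, 0.07 with edgeR and 0.05 with DESeq2. Over all genes 1319 were lower with TMM factors and 3351 with array weights, against 2130, and 1367 to 2312 with a library left out. Higher were 1675 with TMM factors, 1771 with DESeq2, 848 without the filter and 1162 without the trend, against 1200. In either direction 15.4% of members and 35.1% of all tested genes passed with DESeq2, and 12.8% and 32.9% with edgeR. Without the filter these shares were 9.52% and 12.9%, without the trend 17.9% and 34.5%, and with array weights 33.3% and 53.9%. With a library left out they were 7.69% to 17.9% and 24.4% to 37.5%. Psmb6 was positive with TMM factors (0.15), quantile normalization (0.01), the stamp as a covariate or the earlier stamp alone (0.21), edgeR (0.12) and DESeq2 (0.10), and ranged from -0.30 to 0.02 with a library left out. With the stamp as a covariate or the earlier stamp alone Psma1 was at 0.31 and Psma4 at -0.07. None of these 3 genes passed the test with a changed sign. Of 520 values of 29 named genes, 406 kept direction and side of the threshold, 81 lost a call and 22 gained one. Psma8, Psmb11 and Psmc3ip were too low to test.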

Other observations

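BMP9 replicate 4 was the highest of the 6 libraries for 10 and the lowest for 10 of the 39 tested members. The other counts of highest and lowest were 7 and 6 for control replicate 1, 11 and 9 for control replicate 2, 5 and 1 for control replicate 3, 5 and 7 for BMP9 replicate 5, and 1 and 6 for BMP9 replicate 6, the deepest library. BMP9 replicate 4 is also the only BMP9 library under the earlier run time stamp, so the library and the stamp cannot be told apart within the BMP9 group. The median within-group standard deviation on the log2 scale was 0.36 over the tested members and 0.38 over all tested genes.

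Of the genes that control proteasome transcription, Nfe2l2, a stress-responsive relative of Nfe2l1, was at 41.7, 49.9 and 52.5 RPM in control and 122, 37.6 and 105 RPM in BMP9 libraries. BMP9 replicate 5 was below all controls and the other replicates were above them (log2 fold change 0.70, adjusted p = 0.16; 1.23 and adjusted p = 0.0064 without BMP9 replicate 5). With all 6 libraries Nfe2l2 passed with edgeR (1.12, adjusted p = 0.028), DESeq2 (1.11, adjusted p = 0.017) and array weights (1.0, adjusted p = 0.0019). It did not pass with TMM factors (0.99, adjusted p = 0.059) or quantile normalization (0.87, adjusted p = 0.086). Within the earlier run time stamp it was 1.33. Uba1, the main ubiquitin-activating enzyme, was at 1132, 1036 and 1048 RPM in control and 795, 628 and 764 RPM in BMP9 libraries. Its groups did not overlap, and its log2 fold change of -0.56 did not pass (adjusted p = 0.10). It was -0.28 with TMM factors (adjusted p = 0.45) and passed with quantile normalization (-0.67, adjusted p = 0.045) and array weights (-0.54, adjusted p = 0.026). Both genes were chosen after their values were seen.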
